A study of Caenorhabditis elegans with 2 samples.

Results

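The regions described here are the ELT-2 ChIP-seq peaks that lie in the piRNA gene clusters of Caenorhabditis elegans chromosome IV. A peak was a member when its summit, the base of highest enrichment, lay on chromosome IV between 4500000 and 7000000 (domain 1) or between 13500000 and 17200000 (domain 2) of the build ce11. The list thresholded by IDR, a measure of how reproducible peak ranks are between replicates, held 9198 peaks. These were the 9198 strongest peaks of the list pooled from both replicates, so a single peak could still rank low in 1 replicate. Of the 9198 peaks, 343 were members. Domain 1 held 193 of them and domain 2 held 150, and 1034 further peaks lay elsewhere on chromosome IV.

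The data came from whole hermaphrodite L3 larvae of strain OP56, genotype unc-119(ed3) III; wgIs56. This transgenic line carries ELT-2 with a C-terminal GFP-FLAG tag, and chromatin was precipitated through the GFP. Larvae were collected 40 hours after synchronization by bleaching and L1 starvation. The 2 libraries are labelled as biological replicates of 1 group, so no groups were compared and no test over samples exists. A control library entered the peak calling and was not analysed here. The promoter that drives the tagged copy is not named in the labels, and because whole animals were used, the tissue of origin of a peak was not measured. The peak lists hold no read counts, so sequencing depth is unknown.

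ELT-2 is a GATA-type zinc finger transcription factor of the worm intestine that binds TGATAA and related sites and is known for maintaining the expression of intestinal genes. piRNAs of the worm, also called 21U-RNAs, are germline small RNAs that begin with uridine and act with the Piwi protein PRG-1 to recognise foreign transcripts. Most are transcribed as separate tiny genes in clusters on chromosome IV, and many of these genes carry an upstream element, the Ruby motif, with the core CTGTTTCA.

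The following windows show what these peaks and their piRNA neighbours look like in sequence. The peak windows span 60 bp on each side of the summit on the plus strand of ce11, none overlaps an annotated UTR, and capitals mark TGATAA or its reverse complement TTATCA. They are the strongest peak of domain 2 upstream of Y37A1A.2 (chrIV:13919355-13919475), the strong distal peaks nearest to irld-18 (chrIV:14594425-14594545), xdh-1 (chrIV:14414327-14414447) and C52D10.3 (chrIV:17171917-17172037), the peak whose summit falls inside the piRNA gene 21ur-13200 (chrIV:16180984-16181104), and, as a strong promoter peak with no such site, that of Y17G9B.5 in domain 1 (chrIV:4750004-4750124).
Y37A1A.2 peak: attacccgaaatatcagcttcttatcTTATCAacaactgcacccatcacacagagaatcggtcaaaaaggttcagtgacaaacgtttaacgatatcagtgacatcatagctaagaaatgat
irld-18 peak: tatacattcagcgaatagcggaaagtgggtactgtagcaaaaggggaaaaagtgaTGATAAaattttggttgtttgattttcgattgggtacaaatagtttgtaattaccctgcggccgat
xdh-1 distal peak: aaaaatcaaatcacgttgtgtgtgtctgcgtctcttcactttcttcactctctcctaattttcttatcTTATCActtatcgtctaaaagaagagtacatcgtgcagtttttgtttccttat
C52D10.3 distal peak: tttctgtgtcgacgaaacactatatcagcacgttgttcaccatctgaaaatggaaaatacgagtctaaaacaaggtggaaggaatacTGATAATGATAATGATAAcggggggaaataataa
21ur-13200 peak: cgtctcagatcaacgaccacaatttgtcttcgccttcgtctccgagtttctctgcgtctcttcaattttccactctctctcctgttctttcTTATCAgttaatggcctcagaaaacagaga
Y17G9B.5 peak: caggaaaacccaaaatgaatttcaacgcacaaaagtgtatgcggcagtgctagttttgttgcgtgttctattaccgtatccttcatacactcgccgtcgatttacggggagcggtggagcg

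The irld-18 window has its site 2 bp from the summit, counted to the centre of the site. The C52D10.3 window holds 3 sites in tandem. The Y17G9B.5 window holds none, although its peak was the second strongest of domain 1.

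For the piRNA genes beside some of these peaks, the 60 bp upstream and the 21 bases of the gene are given on the strand of the gene, from the same build. Capitals at the end mark the 21 bases of the piRNA, and capitals before them mark the Ruby core where it is present. The loci are 21ur-2469 near the Y37A1A.2 peak (chrIV:13919597-13919677, plus strand), 21ur-3774 near the C52D10.3 peak (chrIV:17172078-17172158, minus strand) and 21ur-13200 itself (chrIV:16181035-16181115, minus strand).
21ur-2469: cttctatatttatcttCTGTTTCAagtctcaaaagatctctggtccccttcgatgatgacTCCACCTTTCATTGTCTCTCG
21ur-3774: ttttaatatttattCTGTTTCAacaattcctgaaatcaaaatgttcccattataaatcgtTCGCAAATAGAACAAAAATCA
21ur-13200: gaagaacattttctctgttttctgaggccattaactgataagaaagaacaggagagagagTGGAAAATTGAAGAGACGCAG

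The core of 21ur-2469 begins 44 bp before the piRNA and that of 21ur-3774 begins 46 bp before it. The locus 21ur-13200 has no core in this window, and the GATA site of its ELT-2 peak lies in its upstream sequence, read here on the opposite strand from the peak window.

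ELT-2 summits were sparser in the piRNA domains together than in the rest of chromosome IV, and sparser in domain 2 than in domain 1. Their density was 77.2 summits per Mb in domain 1 (95% exact Poisson interval 66.7 to 88.9) and 40.5 per Mb in domain 2 (34.3 to 47.6), against 91.6 per Mb in the rest of the chromosome (86.1 to 97.3). The intervals of domain 1 and of the rest overlapped slightly, and that of domain 2 lay below both. The rest was itself uneven: 105 per Mb between the domains (97.6 to 114), 71.8 per Mb to the left of domain 1 (64.2 to 80.0) and 88.5 per Mb to the right of domain 2. Domain 1 thus lay below the stretch between the domains and not below the left one. The density of both domains was 0.604 times that of the rest (0.533 to 0.683). All intervals here cover counting error only and treat summits as independent. In the 9198 strongest peaks of each replicate's own list, domain 1 held 189 summits in replicate 1 and 194 in replicate 2, and domain 2 held 156 and 150.

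Chromosome arms differ in peak density in any case, so the same windows were read on the other chromosomes. At the distance of domain 1 from the left end, the other 5 chromosomes had 99.6 (V) to 162 (II) summits per Mb, all above domain 1, although the interval of chromosome V (87.6 to 113) touched that of domain 1. At the distance of domain 2 from the right end they had 53.0 (I), 58.4 (V), 81.1 (III), 93.5 (II) and 110 (X) summits per Mb, and the intervals of domain 2 and of chromosome I overlapped. Domain 2 also had fewer coding genes, 124 per Mb against 207 per Mb in the rest of chromosome IV, while domain 1 had 193 per Mb. The share of this gene density in the lower peak density was not tested.

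The domains hold nearly all piRNA genes of the annotation: 2816 start in domain 1 and 11388 in domain 2, of 15363 in all, and 510 lie elsewhere on chromosome IV. The first base was T in 96.2% of the domain piRNA genes. A Ruby core lay within 60 bp upstream of 39.7% of those in domain 1 and 33.6% of those in domain 2, against 6.78% of the piRNA genes on other chromosomes. An ELT-2 summit lay within 250 bp of the start of 48 piRNA genes in domain 1 (1.70%) and 116 in domain 2 (1.02%), where the share over all 15363 piRNA genes was 1.39%. These 164 genes are served by 92 summits, since piRNA genes lie close together. On other chromosomes, where piRNA genes are scattered, 37 of 649 had a summit that near (5.70%).

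Within the domains, summits lay away from piRNA gene starts. Of the 343 member summits, 92 (26.8%, 95% exact binomial interval 22.2 to 31.8) were within 250 bp of a piRNA start, while 50.1% of the bases of the domains are that near. In domain 1 this was 31 of 193 summits (16.1%) against 33.7% of bases, and in domain 2 it was 61 of 150 (40.7%) against 61.2% of bases. The shares from replicate 1 alone were 13.8% and 42.3% in domains 1 and 2, and from replicate 2 alone 15.5% and 36.7%. Each was below the share of bases. Over both domains, the summit share was also below the base share within the annotation classes taken one by one. It was 22.9% against 37.6% in promoter windows (from 1000 bp before a coding transcript start to 500 bp after it). In introns it was 30.8% against 54.9%, and in intergenic sequence 34.0% against 61.2%. Exons held only 15 summits, of which 2 were near (13.3%, 1.66 to 40.5, against 32.2% of bases). Both of these lay in domain 2, among 4 exon summits there (50% against 45.3% of bases).

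The summit density was lowest directly at the piRNA starts. Bases within 50 bp of a start held 8 summits in both domains, 7.67 per Mb (3.31 to 15.1). The density was 21.2 per Mb at 50 to 100 bp, 53.2 per Mb at 100 to 250 bp and 82.2 per Mb at 250 to 500 bp. Beyond 5 kb it was 86.0 per Mb (67.5 to 108). In domain 2 alone, the bases within 50 bp of a start carried 4 summits, 4.90 per Mb, and those beyond 5 kb carried 72.0 per Mb.

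**Figure D1:**
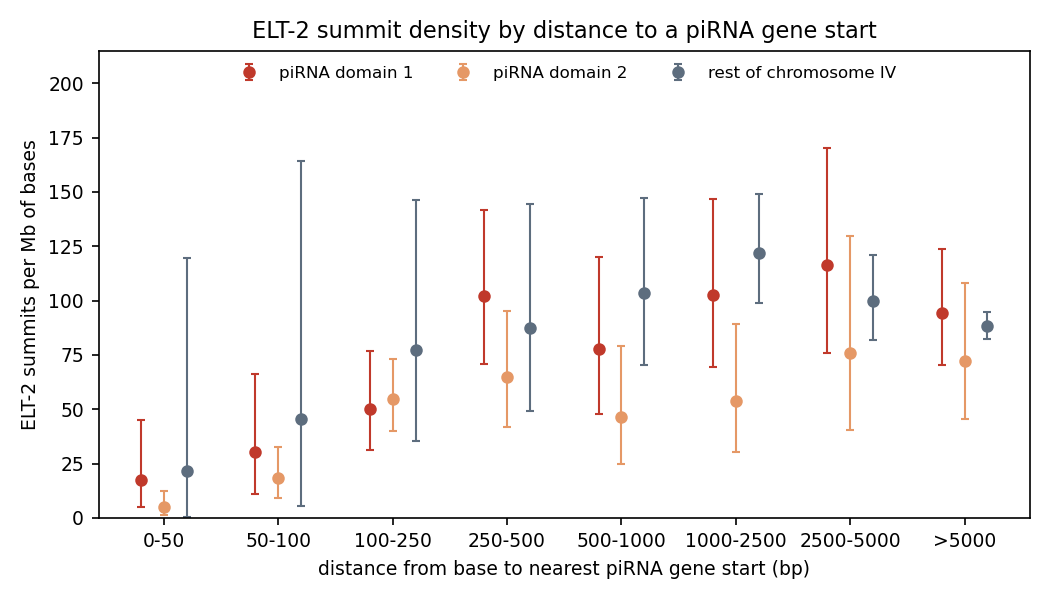
Density of ELT-2 summits (summits per Mb of bases) by the distance of the bases from the nearest piRNA gene start (bp), in domain 1, domain 2 and the rest of chromosome IV. Points are counts divided by the bases available and bars are 95% exact Poisson intervals. Both domains are lowest within 50 bp, at 17.6 and 4.90 summits per Mb, and the few bases near piRNA genes in the rest of the chromosome give wide intervals.

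Over both domains together, the near summits were not placed evenly around the piRNA starts. Of the 92, 28 lay upstream of the nearest start in the direction of that piRNA gene (30.4%, 21.3 to 40.9), where 50.3% of the bases that near are upstream. In domain 2 it was 17 of 61 (27.9%, 17.1 to 40.8), below the base share of 50.4%. In domain 1 it was 11 of 31 (35.5%, 19.2 to 54.6), an interval that includes the base share of 50.1%. In the rest of chromosome IV it was 6 of 12. The 21 bases of a piRNA gene contained 2 of the 92 summits, but the share of near bases inside piRNA genes was not computed. At the member summits the Ruby core was rare as well: CTGTTTCA on either strand lay within 100 bp of 11 of 343 summits (3.21%, 1.61 to 5.67). It lay in 17.9% of windows of that length centred 500 bp to either side and in 14.6% of all windows of the domains. In the rest of chromosome IV, 0.580% of summits and 1.55% of all windows had it. The shorter GTTTCA, which lies inside the core, was found at 16.6% of member summits and in 39.3% of all domain windows, and at 17.1% of summits and in 19.7% of windows in the rest of the chromosome.

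The frequency of core GATA sites at the member summits did not differ beyond counting error from that elsewhere on the chromosome. TGATAA on either strand lay within 100 bp of 97 of 193 summits in domain 1 (50.3%) and 90 of 150 in domain 2 (60%), against 584 of 1034 in the rest of chromosome IV (56.5%). Both domains together differed from the rest by -1.96 percentage points (-8.04 to 4.05). Windows of the same length held TGATAA in 19.0% of all positions in the domains and in 18.1% in the rest.

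**Figure D2:**
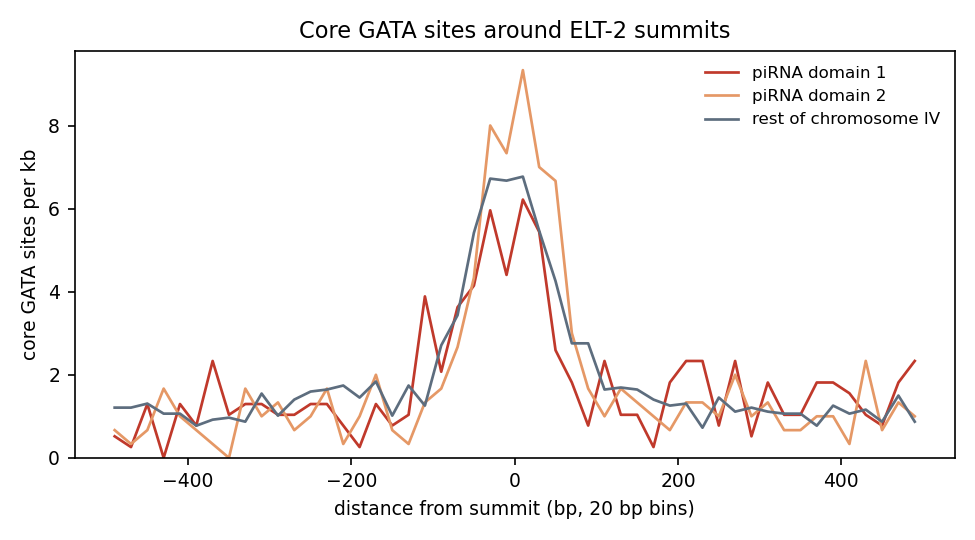
Core GATA sites (TGATAA on either strand, per kb) by distance from the ELT-2 summit in bins of 20 bp, averaged over the summits of domain 1, domain 2 and the rest of chromosome IV. In the bin just right of the summit the 3 curves stand at 6.22, 9.33 and 6.77 sites per kb.

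The summits near piRNA starts carried TGATAA more often than the other member summits. TGATAA lay within 100 bp of 76 of the 92 near summits (82.6%, 73.3 to 89.7) and of 111 of the other summits (44.2%, 38.0 to 50.6). The shares were 71.0% and 46.3% in domain 1, and 88.5% and 40.4% in domain 2. In the rest of chromosome IV they were 9 of 12 near summits (75%, 42.8 to 94.5) and 575 of 1022 others (56.3%). Among the stronger 4599 peaks of the whole list the shares in domain 1 were close, 11 of 18 near summits (61.1%) and 46 of 77 others (59.7%), while in domain 2 they were 28 of 32 (87.5%) and 25 of 43 (58.1%). Over both domains and all strengths, near and other summits differed in this share both inside and outside promoter windows. In promoter windows of coding genes TGATAA lay at 34 of 41 near summits against 59 of 138 others. Outside these windows it lay at 42 of 51 near summits against 52 of 113 others.

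Expressed as densities, summits with and without TGATAA were sparser near piRNA genes over both domains, those without it more so. Some summits without TGATAA carry a related GATA site: WGATAR, which includes TGATAA, lay at 67.1% of the member summits. In this paragraph a site means TGATAA. The ratio of the density within 250 bp to that beyond was 0.114 without TGATAA (0.0633 to 0.191) and 0.682 with it (0.502 to 0.921). In domain 2, summits without TGATAA had a density of 3.09 per Mb within 250 bp of a piRNA start (7 summits) and 36.9 per Mb beyond (53 summits), a ratio of 0.0838 (0.0321 to 0.185). Summits with TGATAA had 23.9 per Mb near and 25.1 per Mb beyond in the same domain, a ratio of 0.952 (0.613 to 1.49). The intervals of these ratios do not overlap. In domain 1 the ratio was 0.203 without a site (0.0900 to 0.404) and 0.577 with one (0.341 to 0.938), so there both kinds were sparser near piRNA starts, and the intervals overlapped. Among the stronger peaks of domain 1 the ratios were alike, 0.444 without a site and 0.470 with one. In the rest of chromosome IV, summits without a site had 14.5 per Mb near (3 summits) and 40.3 per Mb beyond. Those with a site had 43.4 per Mb near (9 summits) and 51.9 per Mb beyond.

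The replicates gave close values for these ratios. In domain 2, the summits with TGATAA gave 1.05 from the list of replicate 1 and 0.923 from that of replicate 2, and those without gave 0.0923 and 0.0717. Even summits with a site were few within 100 bp of a start in both domains together, at 10.8 per Mb (6.61 to 16.7) against 44.5 per Mb at 100 to 250 bp (33.6 to 57.7). The bases near piRNA starts were richer in A and T, 70.1% against 63.9% beyond 250 bp, and held more TGATAA, 1.23 against 0.986 sites per kb. The part of this base composition in the ratios was not tested.

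**Figure D3:**
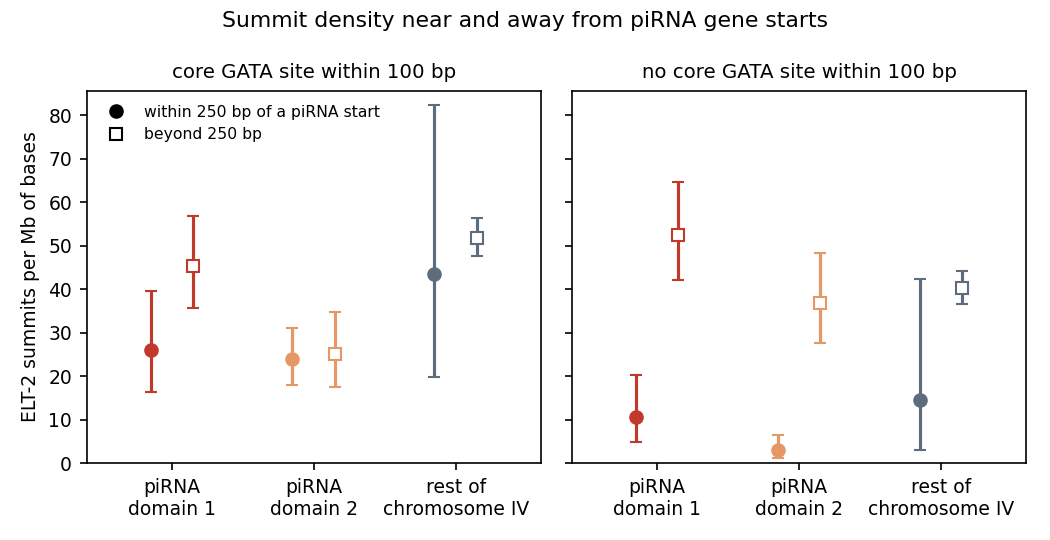
Density of ELT-2 summits (summits per Mb) within 250 bp of a piRNA gene start (filled circles) and beyond it (open squares), for summits with a core GATA site within 100 bp (left panel) and without one (right panel). Bars are 95% exact Poisson intervals. In domain 2 the near and far densities are 23.9 and 25.1 per Mb with a site, and 3.09 and 36.9 per Mb without one.

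Read from the GATA sites, most TGATAA sequences of the domains had no ELT-2 summit. A summit lay within 100 bp of 143 of 2715 sites in domain 1 (5.27%) and 156 of 4169 in domain 2 (3.74%). The share was 966 of 12104 sites in the rest of chromosome IV (7.98%) and 7.55% of all 105444 sites of the nuclear chromosomes. In domain 2 the share was 3.80% for sites within 250 bp of a piRNA start (3.13 to 4.58) and 3.62% for the others (2.69 to 4.75). In domain 1 it was 3.53% (2.48 to 4.85) and 6.31% (5.20 to 7.58).

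The median strength of the member peaks was close to that of the chromosome, and fewer of them lay at coding promoters. The deposited signal, the authors' enrichment value against the control, had a median of 201 in domain 1 and 201 in domain 2, against 204 in the rest of chromosome IV. The median member stood at the 49.5 percentile of all 9198 signals. Promoter windows held 179 of the 343 member summits (52.2%, 46.8 to 57.6), against 62.8% in the rest of the chromosome. The domains differed in their upper end. A signal over 1000 was reached by 2 of 193 peaks in domain 1 (1.04%, 0.126 to 3.69) and 12 of 150 in domain 2 (8.0%, 4.20 to 13.6), against 52 of 1034 in the rest (5.03%, 3.78 to 6.54). Of the 343 member summits, 325 had a summit within 100 bp in the lists of both replicates (94.8%), and none was missing from both. These lists held 28033 peaks in replicate 1 and 30000 in replicate 2. Over the member peaks matched in both lists, Spearman's rho between the 2 signals was 0.854 in domain 1 and 0.927 in domain 2. The members were selected with these same 2 replicates, so neither the matched share nor rho is an independent measure of reproducibility. With all pooled peaks of the domains the matched share was 54.1%.

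**Figure D4:**
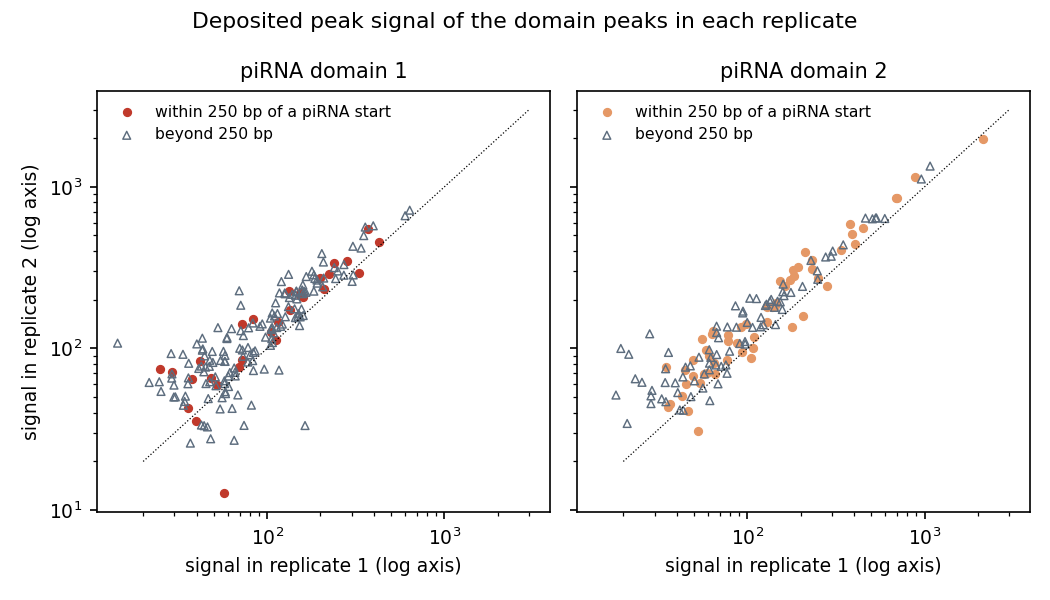
Deposited peak signal in replicate 1 (x axis, log scale) and replicate 2 (y axis, log scale) for the 183 members of domain 1 and the 142 of domain 2 matched in both lists. Filled circles lie within 250 bp of a piRNA start, open triangles beyond, and the dotted line marks equal values. Signals in replicate 2 were the higher for 158 and 128 of these peaks, and domain 2 reaches further up, to 2132 in replicate 1 and 1990 in replicate 2.

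The 10 strongest peaks of domain 2 lay mostly outside coding promoters. Of these 10 peaks, 8 were outside any such window, all 10 had TGATAA within 100 bp, and 9 lay within 500 bp of a piRNA start. Such nearness is common in domain 2, where the median base lay 155 bp from a piRNA start and the median summit 324.5 bp. Of all 150 summits of domain 2, 48.7% lay in promoter windows and 60% had TGATAA. Within 250 bp of a piRNA start lay 4 of the 10 strongest peaks, against 40.7% of all summits of the domain. Of the 10 strongest in domain 1, 4 were outside promoter windows, 5 had TGATAA and 5 lay within 500 bp of a piRNA start. There the median base lay 582 bp from a start and the median summit 1182 bp. Of all 193 summits of domain 1, 54.9% lay in promoter windows and 50.3% had TGATAA. Within 250 bp of a piRNA start lay 3 of its 10 strongest peaks, against 16.1% of all its summits.

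The strongest member was the Y37A1A.2 peak, the third strongest of all 9198. Its signal was 2132 in replicate 1, 1990 in replicate 2 and 4113 in the pooled list. It lay in intergenic sequence 6386 bp upstream of Y37A1A.2, annotated as an ADP,ATP carrier protein, with 3 TGATAA sites within 100 bp, and 242 bp from 21ur-2469. The irld-18 peak reached 1074 in replicate 1 and 1343 in replicate 2, and lay 13446 bp upstream of irld-18, a receptor L-domain gene. A peak 1516 bp upstream of ent-4, an equilibrative nucleoside transporter gene, had 959 and 1118 in replicates 1 and 2. All 3 peaks lay outside promoter windows.

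The gene xdh-1 encodes xanthine dehydrogenase, which makes uric acid from purines. It had a peak 1493 bp upstream with a signal of 884 in replicate 1 and 1153 in replicate 2, 87 bp from 21ur-12080. A second peak 710 bp upstream had 508 and 634. Upstream of C52D10.3, a gene of unknown function, 2 peaks at 4500 and 2202 bp had pooled signals of 1552 and 1228, with 4 and 2 TGATAA sites. The remaining strong peaks of domain 2 were nearest to tlp-1, a zinc finger protein gene (1181, 4039 bp upstream), and Y41E3.1, a sulfatase-domain gene (1174, 603 bp upstream). Of these, the nearer xdh-1 peak and the Y41E3.1 peak were the ones in promoter windows.

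In domain 1 the strongest peak lay in an intron of a longer tre-2 transcript, 1240 bp upstream of the nearest other start of this gene, which encodes a trehalase, an enzyme that splits the disaccharide trehalose. Its signal was 637 in replicate 1 and 717 in replicate 2. The Y17G9B.5 peak, 176 bp upstream of the gene for a mitochondrial protein annotated as a signaling intermediate in the Toll pathway, had 600 and 662. The peak nearest to kcc-2, a potassium chloride cotransporter gene, was intronic and had 397 and 574. The strongest paqr-1 peak, 327 bp inside this adiponectin receptor-like gene, had 358 and 563. For scale, the median of the domain was 83.1 in replicate 1 and 117 in replicate 2; these peaks were picked by their pooled signal.

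The elo-5 gene, a fatty acid elongase needed for branched-chain fatty acids, had a peak 153 bp upstream with 305 and 429 in replicates 1 and 2. The ugt-20 gene, a glucuronosyltransferase that conjugates small molecules, had one 255 bp upstream with 427 and 455, and 95 bp from 21ur-4109. The other peaks were nearest to K02B2.6 (pooled signal 911, intergenic, 171 bp from 21ur-5229), the phospholipase-domain gene ipla-6 (851), the C-type lectin gene clec-178 (748) and lip-1, a phosphatase gene of MAP kinase signalling (629, 3684 bp upstream).

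The member peaks directly at piRNA starts were few. The strongest of the 8 within 50 bp was the 21ur-13200 peak, whose summit lay 11 bp from the start of that piRNA gene and 3577 bp downstream of the nearest coding gene start, that of WBGene00194929, an uncharacterized protein gene. It had a signal of 689 in replicate 1 and 850 in replicate 2. The next lay 98 bp upstream of asp-9, an aspartyl protease gene, with 329 and 293, and 24 bp from 21ur-7199. The semo-1 gene, a methanethiol oxidase gene, had a peak 555 bp upstream with 180 and 304, 27 bp from 21ur-4340. The ugt-19 peak, 161 bp upstream, had 114.5 and 146, and the gln-3 peak, 1481 bp downstream of the nearest start of this gene and past its annotated end, had 93.2 and 94.7. The first 3 had TGATAA within 100 bp, the ugt-19 and gln-3 peaks had none, and the gln-3 peak had a Ruby core.

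Fewer coding genes were bound in domain 2 than in the rest of the chromosome. A gene was called bound when a summit lay in its promoter window. In domain 1 this held for 113 of 482 coding genes (23.4%, 19.7 to 27.5) and in domain 2 for 78 of 459 (17.0%, 13.7 to 20.7). The background was 27.8% of the 2340 coding genes in the rest of chromosome IV and 26.6% of all 19973 nuclear coding genes.

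Genes with a piRNA start in the promoter window were bound less often than the others in domain 2, and in domain 1 the intervals overlapped. Whether the domains differ in this was not tested. In domain 2, 36 of 317 such genes were bound (11.4%, 8.08 to 15.4), against 42 of 142 without a piRNA start there (29.6%, 22.2 to 37.8). In domain 1 the shares were 47 of 223 (21.1%, 15.9 to 27.0) and 66 of 259 (25.5%, 20.3 to 31.2). In the rest of chromosome IV they were 35 of 144 (24.3%) and 615 of 2196 (28.0%). The median best signal of bound genes with a piRNA start and without one was 311 and 203 in domain 2, 238 and 248 in domain 1, and 308 and 208 in the rest of chromosome IV.

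**Figure D5:**
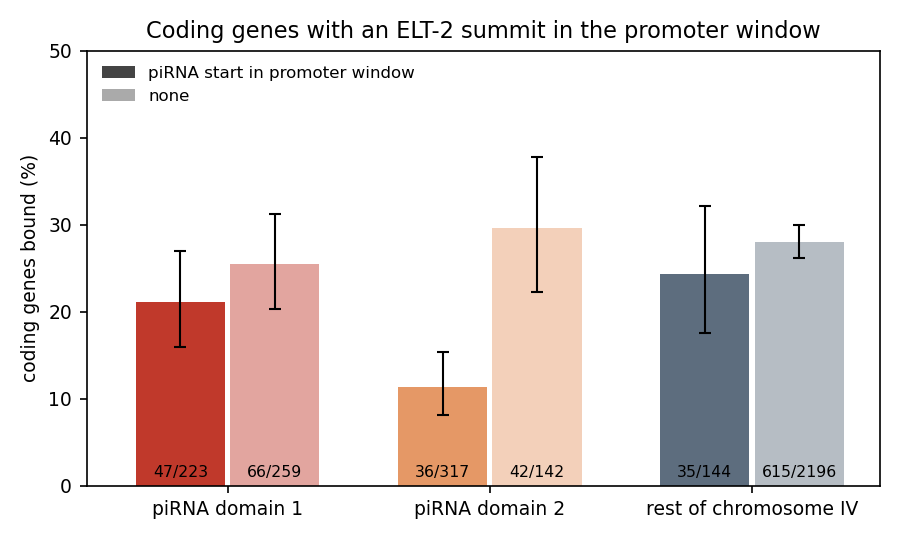
Share of coding genes (%) with an ELT-2 summit in the promoter window, for genes with a piRNA gene start in that window (dark bars) and without one (light bars), in domain 1, domain 2 and the rest of chromosome IV. Error bars are 95% exact binomial intervals and the numbers are bound genes of all genes. In domain 2 the bars stand at 11.4% and 29.6%, with intervals that do not overlap.

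Chemoreceptor genes of either domain had no ELT-2 summit in their promoter windows. They are rarely bound in the genome as a whole, as in the str family with 2.59% of 193 genes. None of the 45 chemoreceptor genes (sr and str families, sensory receptors of neurons) in domain 1 and none of the 41 in domain 2 was bound. Without them, the bound share in domain 1 was 26.0% with a piRNA start in the window and 25.8% without one, and in domain 2 it was 12.5% (8.91 to 16.9) and 32.3% (24.4 to 41.1). The difference in domain 2 was therefore as large without the chemoreceptor genes, and in domain 1 the shares were then nearly equal. None of the 9 msp genes, which encode major sperm protein, was bound, as none of the 31 in the genome was. All 4 ugt genes were bound (ugt-19, ugt-20, ugt-22 and ugt-24), where 61.2% of the 67 ugt genes of the genome were, and so were 3 of 4 cest genes of the carboxylesterase type, where 53.1% of 32 were in the genome. Of the 9 clec genes, which encode C-type lectins, 1 was bound, against 27.9% of 240 in the genome, and of the 5 skr genes none was, against 35% of 20. These families are small, and they were looked at after the peaks were known.

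The domain genes with most peaks in the promoter window had 3 each. The gene skn-1, a transcription factor of oxidative stress defence and endoderm specification, was the nearest gene to 9 member peaks over 7.54 kb, with pooled signals of 103 to 581 and no piRNA start closer than 4456 bp. The strongest of these 9 peaks, in an intron and outside promoter windows, had 306 in replicate 1 and 285 in replicate 2. A stronger peak lay within the same stretch, the clec-178 peak with a pooled signal of 748. It is not counted among the 9, because the start of clec-178 was nearer to it. In the promoter windows of skn-1 the best pooled signal was 281. The gene eps-8, an actin-capping protein gene of intestinal microvilli, was nearest to 7 peaks, all with TGATAA, although it carries 100 piRNA starts in its body and 66 in its promoter windows. Its strongest peak, in an intron, had 381 and 591. The gene gln-3, a glutamine synthetase gene, was nearest to 5 peaks, of which the strongest had 348 and 437, and paqr-1 was nearest to 3. Of these genes, eps-8 and gln-3 lie in domain 2 and skn-1 and paqr-1 in domain 1.

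Long stretches of domain 2 had no IDR-passing peak. The longest, of 183 kb, ran between the summits at 15984460 and 16167616 and held 811 piRNA genes and 5 coding genes, and the gln-3 peak beside 21ur-2814 closed it. In domain 1 the longest was 146 kb with 199 piRNA genes and 40 coding genes, and in the rest of chromosome IV it was 158 kb with no piRNA gene. With the weaker peaks of all lists counted, the longest stretch was 72.3 kb in domain 1 and 120 kb in domain 2, both at other places. Over bins of 100 kb, the number of piRNA genes and the number of summits had Spearman's rho of -0.163 in domain 1 (25 bins) and -0.102 in domain 2 (37 bins), against 0.298 in the rest (112 bins). These are descriptions over bins of the same chromosome and libraries, and piRNA and coding gene numbers were themselves related, with rho of -0.365 and -0.536 in domains 1 and 2 and 0.389 in the rest.

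The protein-coding genes of the piRNA pathway lie mostly elsewhere in the genome. Of 22 genes of piRNA transcription and biogenesis, 3 were bound, tofu-1 (192), unc-130 (126) and tost-1 (78.2), the values being the best pooled signals. Among those not bound were prg-1, which encodes the Piwi protein, prde-1 and snpc-4, which act at piRNA promoters, and henn-1, the methyltransferase of small RNA ends. Of 33 genes of piRNA-directed silencing, 15 were bound, with signals of 77.4 (met-2) to 359 (mut-15); they include csr-1, an Argonaute gene, ego-1, an RNA-directed RNA polymerase gene (280), and the mutator genes mut-2, mut-7 and mut-16. The 26.6% of all coding genes stands beside 13.6% and 45.5% for these lists, and no test was made. The 3 listed genes that lie in a domain, slfl-4, nyn-1 and pgl-1, were not bound.

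The domain edges follow the rule and not the data. Just inside the left edge of domain 1 the nearest peak was that of sar-1 (signal 257), and just outside that of trx-3 (127). At its right edge they were ruvb-2 (271) and trxr-1 (105). Domain 2 began with tbc-9 (83.2), next to gcl-1 (80.8) outside. It ended with a C52D10.3 peak (183), and 45.4 kb outside the right edge lay a stronger peak at ZK550.2 (1845) that was 232 bp from a piRNA start, since piRNA genes continue past that edge.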

How the data were processed

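Peak lists of ELT-2 ChIP-seq were deposited on ce10 and ce11, per the labels: 1 list of peaks with background for each of 2 replicates, 1 for both pooled, and the IDR-passing list. The deposited signal was the authors' enrichment against a control and was used to describe and rank peaks within a list; the deposited offset gave the summit. No label or header names the aligner, the peak caller or the IDR threshold. The labels name both an anti-GFP precipitation and, in the antibody field, elt-2.

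Summits were related to WBcel235 (the assembly of ce11; Ensembl release 115 genes, RefSeq sequence) with Python 3.11.15, numpy 2.4.6, pandas 2.3.3 and scipy 1.17.1; figures used matplotlib 3.10.9. Backgrounds were taken over every base of a region, and intervals are 95% exact binomial (Clopper-Pearson) or Poisson, except that of the difference of GATA site shares (Newcombe). Ratio intervals derive from the exact binomial interval of the split. The computations were tested on simulated summits. No test was run. Classes were taken in the order promoter window, exon, intron, intergenic. Named genes are those nearest to the 10 strongest peaks of each domain, to the strongest peaks within 50 bp of a piRNA start and at the edges, those with most peaks, and listed piRNA pathway genes; further families were picked with the values in view. The members and lists were chosen with earlier results of these data known. The division of summits by GATA site and piRNA distance was added after the data were seen.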

Additional observations from a re-analysis of the deposited data

How the results depend on the processing

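Of 147 alternatives, 93 were planned and 54, on the near to far density ratios, were chosen after seeing the data. The ratio with TGATAA in domain 2, whose interval includes 1, was 1.36 with 50 bp around the summit, 1.21 with 1000 bp of a piRNA start and 1.05 without replicate 2, so its direction is not settled. No paired analysis was possible because both replicates form 1 group. With only the stronger 4599 peaks, the domains held 170 summits, with TGATAA at 64.7%, a Ruby core at 1.18%, 11.3% of coding genes bound, 0.655% of piRNA genes near a summit, a median percentile of 73.0 and 97.6% matched in both replicates. With all 30000 pooled peaks, background included, the values were 1160 summits, 31.6%, 6.55%, 30.8% and 4.39%, with 54.1% matched and 39.7% in promoter windows. TGATAA was at 41.7% within 50 bp, 64.1% within 200 bp, and WGATAR, which includes TGATAA, at 67.1%. The Ruby core was at 1.46% and 13.1%, and GTTTCA at 16.6%. A promoter window of 500 to 200 bp gave 42.6% of summits and 16.5% of genes, and one of 2000 to 500 bp gave 63.8% and 23.8%; the nearest gene alone gave 16.9%. Within 100 and 1000 bp of a piRNA start lay 7.29% and 53.9% of summits, 29.8% and 70.6% of bases, and 0.218% and 6.22% of piRNA genes had a summit. The base share was 55.1% with edges 0.25 Mb inward and 56.7% in bins with at least 50 piRNA genes. Matches within 50 and 250 bp were 86.0% and 99.1%. From 1 replicate's list the matched share was 91.3% to 92.2%, where a match was needed only in the list of the other replicate. The ratio with TGATAA was 0.282 (both domains) and 0.270 (domain 2) at 100 bp of a start. Without TGATAA it was 0.224, 0.333 and 0.275 in both domains for the stronger peaks, all pooled peaks and 1000 bp, 0.444, 0.452 and 0.459 in domain 1, and 0.306 and 0.187 in domain 2 for the last 2 of these. The causes of these moves were not tested, beyond the narrower or wider windows and peak sets themselves. Depth is unknown, so its limit on weak peaks could not be assessed.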

Other observations

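Outside the domains, 175 piRNA genes start in the 0.294 Mb to the right of domain 2, where 26 summits lay (88.5 per Mb). Of the piRNA genes of the domains, 1184 had TGATAA within 60 bp upstream, and 16 of these had an ELT-2 summit within 250 bp of the start. Over all 14204 piRNA genes of the domains, 164 had a summit that near (1.15%). Among piRNA genes of domain 2, 0.941% of those with a Ruby core and 1.06% of those without one had a summit that near.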
